A study of Mus musculus with 8 samples.

Results

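CD8+ T cells sorted from mouse melanomas as 4-1BB- LAG3+ were compared with CD8+ T cells sorted from the same kind of tumor as 4-1BB- LAG3- PD-1+, which carried PD-1 but neither of the other 2 receptors. The groups were taken from the array titles, and every gene detected on at least 2 of the 8 arrays of the series was compared, 7893 of 17830 genes named on the array. Of the 8 arrays, 4 carry the comparison: 2 for each population, from experiments 1 and 2. The other 4 arrays, given as context, held triple-negative cells (4-1BB- LAG3- PD-1-) and 4-1BB+ LAG3+ cells. All cells came from untreated female C57BL/6 mice bearing B16.SIY.dsRed, a B16 melanoma line engineered to carry SIY, a model antigen, and dsRed, a red fluorescent protein. Per the series' design, 10 mice bore a tumor in each flank, and these were pooled at 14 days, so an array stands for a pool of animals. Whether the LAG3+ cells carried PD-1 is not stated in the labels, nor is the age of the mice.

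PD-1 (Pdcd1) and LAG3 (Lag3) are inhibitory receptors that T cells put on their surface after their antigen receptor is engaged, and that persist on cells exposed to antigen for a long time, as in tumors. PD-1 binds the ligands PD-L1 and PD-L2, and LAG3 binds MHC class II, among other ligands. 4-1BB (Tnfrsf9) is a costimulatory receptor of the TNF receptor family that is induced by the same signal. Cells that gain these receptors usually lose the homing and quiescence genes of naive T cells and may divide.

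Between 5522 and 8493 of 25697 probes were detected on the 4 arrays, 6404 and 5522 on the PD-1+ arrays of experiments 1 and 2 and 8493 and 7282 on the LAG3+ arrays. The LAG3+ arrays correlated at r = 0.928 with each other and the PD-1+ arrays at r = 0.771, lower than either PD-1+ array correlated with any LAG3+ array (0.796 to 0.853). The 2 PD-1+ arrays thus stand apart from each other, and values are given for each array. The standard deviation of the difference between replicates across genes was 1.27 on the log2 scale in PD-1+ and 0.70 in LAG3+ cells. Of all genes, 657 were detected on both LAG3+ arrays and neither PD-1+ array, against 81 the other way. Levels are log2 of normalized intensity, and a difference is LAG3+ minus PD-1+ with its standard error (n = 2 and 2), from limma over all 8 arrays, with adjusted p-values by Benjamini-Hochberg over the 7893 genes and a threshold of 0.05. The standard error pools the spread of all populations and may be too small where the PD-1+ arrays differ. It may also be too small for a gene near background in a population, since replicates differ little there.

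The genes of the sorting markers came first. Lag3 measured 9.39 and 8.99 on the LAG3+ arrays of experiments 1 and 2 and 8.41 and 8.92 on the PD-1+ arrays, with 4.64 and 4.32 in triple-negative cells. The populations did not overlap, but the Lag3 difference of 0.53 ± 0.36 did not pass the test (limma adjusted p = 0.609). Both arrays of the PD-1+ cells, sorted without surface LAG3, held Lag3 transcript above both triple-negative arrays. Pdcd1 was dim, at 4.98 and 4.97 in LAG3+ and 5.39 and 4.27 in PD-1+ cells, and undetected on the second PD-1+ array. Tnfrsf9 was 7.57 and 7.69 in LAG3+ and 6.66 and 8.16 in PD-1+ cells, although both were sorted as 4-1BB-. In triple-negative cells Tnfrsf9 was 4.71 and 5.16. Cd8b1, the CD8 beta chain, lay between 12.40 and 12.54 on the 4 arrays and Cd3e, the CD3 epsilon chain, ranged from 11.31 to 11.71. Cd4 was detected on none of the 4 arrays. Cd8a was not tested, since its probe reached detection on 0 of 8 arrays.

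Of the 7893 genes, 6 passed the test (0.076%), 4 higher and 2 lower in LAG3+ cells. All 6 were undetected on both arrays of the lower population, so each fold is a lower bound: the brighter population's mean over the lowest detected signal of the dimmer arrays. With the experiment number as a block none of the 6 passed (limma adjusted p 0.0741 to 0.0993). At an unadjusted p below 0.05 there were 908 genes (11.5%).

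Igfbp7, a secreted protein that binds insulin-like growth factors and is better known from blood vessel walls and stroma, rose the most among the 6. LAG3+ cells measured 8.73 and 8.19, PD-1+ cells 4.17 and 4.25, triple-negative cells 4.84 and 4.51, and 4-1BB+ LAG3+ cells 9.93 and 9.15. Both populations sorted for LAG3 were high and both others low. The Igfbp7 level was at least 12.2-fold higher in LAG3+ than in PD-1+ cells (difference 4.26 ± 0.39, limma adjusted p = 0.0316, 0.0741 with the block). Clgn, which encodes the endoplasmic reticulum chaperone calmegin, best known from the testis, was also high in both populations sorted for LAG3. It was 7.33 and 7.29 in LAG3+, 4.14 and 4.11 in PD-1+, 4.15 and 4.12 in triple-negative and 7.21 and 7.0 in 4-1BB+ LAG3+ cells, at least 5.47-fold higher in LAG3+ than in PD-1+ cells (3.18 ± 0.28, limma adjusted p = 0.0316, 0.0744 with the block).

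Slc6a6, the taurine transporter, had another pattern, in which the PD-1+ cells were the low ones. It measured 7.81 and 9.01 in LAG3+, 4.36 and 4.25 in PD-1+, 7.74 and 7.48 in triple-negative and 7.92 and 8.29 in 4-1BB+ LAG3+ cells. The Slc6a6 level was at least 11.7-fold higher in LAG3+ than in PD-1+ cells (4.10 ± 0.44, limma adjusted p = 0.0478, 0.0993 with the block). Ccdc181, a coiled-coil protein gene, also had its 2 lowest values on the PD-1+ arrays: 7.58 and 8.28 in LAG3+, 4.13 and 4.18 in PD-1+ and 6.04 and 6.77 in triple-negative cells, at least 8.39-fold higher in LAG3+ than in PD-1+ cells (3.77 ± 0.40, limma adjusted p = 0.0478, 0.0993 with the block). These 2 genes separate the PD-1+ arrays from the other 6. In both experiments the PD-1+ array had fewer detected probes than the other 3. The part of this in the result was not tested.

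Cyp4f18, a cytochrome P450 known from neutrophils and other myeloid cells, fell. It measured 4.20 and 4.21 in LAG3+ and 7.94 and 8.08 in PD-1+ cells, with 4.94 and 4.44 in triple-negative and 4.26 and 4.20 in 4-1BB+ LAG3+ cells, at least 11.7-fold lower in LAG3+ than in PD-1+ cells (-3.80 ± 0.31, limma adjusted p = 0.0316, 0.0741 with the block). Chil3, a chitinase-like protein made by alternatively activated macrophages, fell from 6.76 and 6.69 in PD-1+ to 4.14 and 4.12 in LAG3+ cells, at least 4.83-fold lower (-2.60 ± 0.28, limma adjusted p = 0.0478, 0.0993 with the block). Both genes were high on the PD-1+ arrays alone, and another probe of each differed the same way (-2.59 for Cyp4f18 and -2.01 for Chil3). Markers of macrophages and monocytes were higher on both PD-1+ arrays as well, as given further on.

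**Figure D1:**
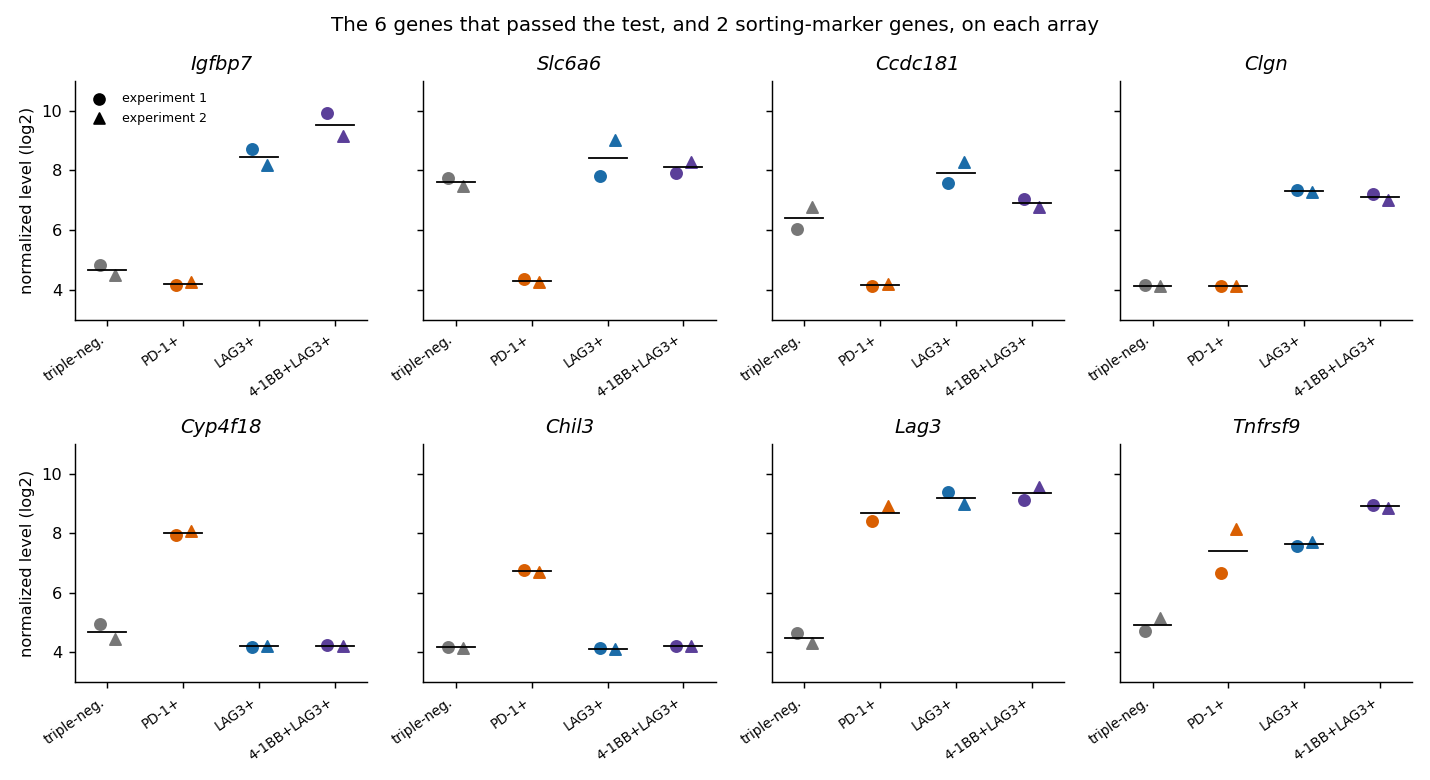
Normalized level (log2, y axis) of the 6 genes that passed the test and of Lag3 and Tnfrsf9 in the 4 populations (x axis), circles for experiment 1, triangles for experiment 2 and a line for the mean of both arrays. Igfbp7 and Clgn are high in both LAG3-sorted populations, Slc6a6 and Ccdc181 are low on the PD-1+ arrays alone, Cyp4f18 and Chil3 are high there alone, and Lag3 itself is high in PD-1+ cells too.

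The 15 genes with the highest difference, taken among those detected on both LAG3+ arrays and with no overlap between the populations, were led by Ormdl3, a regulator of sphingolipid synthesis in the endoplasmic reticulum. It measured 8.27 and 9.26 in LAG3+ cells against 4.42 and 4.14 in PD-1+ cells (4.49 ± 0.58, limma adjusted p = 0.0861). Triple-negative cells held it at 8.11 and 8.75, so the PD-1+ cells were again the low ones. Of the highest 15, Igfbp7, Slc6a6 and Ccdc181 passed the test and the other 12 did not. Gldc, the glycine-cleaving decarboxylase of mitochondria, was 10.46 and 9.90 in LAG3+ cells but 9.03 and 4.14 in PD-1+ cells, so its difference of 3.59 ± 1.36 rests on the second PD-1+ array. Ccpg1, a receptor for autophagy of the endoplasmic reticulum, was likewise near background on one PD-1+ array alone (4.16 and 7.54, against 9.30 and 9.41). Adam17, the protease that sheds LAG3 and TNF from the cell surface, was 7.45 and 7.85 in LAG3+ and undetected in PD-1+ cells (4.44 and 4.16). Its difference was 3.35 ± 0.99 (limma adjusted p = 0.269). Dusp16, a phosphatase that acts on the kinases JNK and p38, was 7.03 and 8.03 against 4.16 and 4.11, with a difference of 3.40. In triple-negative cells Ccpg1 was 9.71 and 8.99, Adam17 7.02 and 6.82 and Dusp16 5.87 and 7.95, all above both PD-1+ arrays. Gldc went the other way, at 4.13 and 4.19 in triple-negative cells. Dusp16 was 5.18 and 4.30 in 4-1BB+ LAG3+ cells. Second probes of Dusp16, Gldc and Synrg differed less, by 0.51, 0.84 and 0.43. The others of the 15, with differences from 3.29 to 3.66, were Fam98a, Usp20, Fam185a, Synrg, Fbxo4, Ccdc127 and Entpd4. For each of these, both PD-1+ arrays were below the other 6 arrays, which held for 9.07% of all genes.

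Of the 15 genes with the lowest difference, 8 were histone genes, described next. The other 7 were of mixed kinds. They included Sirpa, the receptor for the signal CD47 on phagocytes, at 4.31 and 4.35 in LAG3+ and 7.25 and 9.0 in PD-1+ cells, and Tgfbi, an extracellular matrix protein, at 4.81 and 4.17 against 7.39 and 8.64. Tgm2, a transglutaminase, was 5.60 and 6.51 against 8.69 and 9.91. Esm1, a proteoglycan of activated endothelium, was 5.04 and 4.21 against 8.49 and 7.45, and Ifitm3, an interferon-induced membrane protein, was 5.04 and 5.02 against 7.41 and 8.98. For each of these 5 genes both PD-1+ arrays were higher than both LAG3+ and both triple-negative arrays, and limma's adjusted p lay between 0.1 and 0.13. The probe named Rnu6, for the U6 spliceosomal RNA, measured 4.81 and 4.98 in LAG3+ and 7.76 and 9.08 in PD-1+ cells (-3.52 ± 0.56, limma adjusted p = 0.1). Cyp4f18 completed the 15.

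Markers of other cell types were measured beside these genes. Of 18 macrophage and monocyte markers on the array, 12 were tested and 10 of these were lower in LAG3+ cells, 8 with no overlap and none past the test, with a median difference of -1.72 (-0.69 in experiment 1 and -2.55 in experiment 2). Without PD-1+ array 1 it was -2.48, and without PD-1+ array 2 it was -0.78. Over all tested genes the median was 0.05, and 17.9% of genes were lower in LAG3+ cells with no overlap between the arrays. The summed level of the 18 markers, in linear units, was 779 and 571 on the LAG3+ arrays, 1621 and 4953 on the PD-1+ arrays, 635 and 970 in triple-negative and 497 and 474 in 4-1BB+ LAG3+ cells. Lyz2, the lysozyme of macrophages, measured 5.85 and 5.47 in LAG3+ and 7.34 and 9.16 in PD-1+ cells. Csf1r, the receptor for the macrophage growth factor CSF1, was 4.50 and 5.12 against 6.17 and 6.97. Apoe was 4.42 and 4.66 against 6.18 and 6.10. The macrophage markers Adgre1 and Fcgr1 were undetected on both PD-1+ arrays.

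Of 17 genes of dendritic cells and MHC class II, 8 were tested and all 8 had the lower mean in LAG3+ cells, 5 with no overlap, again against 17.9% of all genes (median -1.21, with -0.40 in experiment 1 and -2.14 in experiment 2). The median was -2.10 without PD-1+ array 1 and -0.79 without PD-1+ array 2. Cd74, the invariant chain, measured 6.48 and 6.10 in LAG3+ and 8.53 and 8.51 in PD-1+ cells, and H2-Aa, a class II alpha chain, 5.85 and 4.89 against 7.06 and 7.78. Of 9 B cell markers on the array 2 were tested, and 5 were undetected on all 8 arrays. The B cell receptor gene Cd79b was 5.03 and 6.34 against 8.0 and 7.96. Cd22, the other tested marker, was near background and overlapped, at 4.36 and 4.17 against 4.77 and 4.27. The summed level of 10 melanoma markers was 583 and 2364 in LAG3+ and 895 and 4632 in PD-1+ cells, higher in experiment 2 in both, with Pmel, a pigment cell protein, at 5.82 and 8.63 against 8.75 and 10.47 (-2.39, and -0.60 by another probe). Neutrophil and erythroid markers summed to 236 and 249 and to 127 and 113 in LAG3+ cells and to 250 and 201 and to 143 and 141 in PD-1+ cells. In a sorted bulk sample, more cells of another type and more of its RNA per cell cannot be told apart, and the part of these cells in the differences of Cyp4f18, Chil3, Sirpa, Tgfbi and the other genes was not tested.

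**Figure D2:**
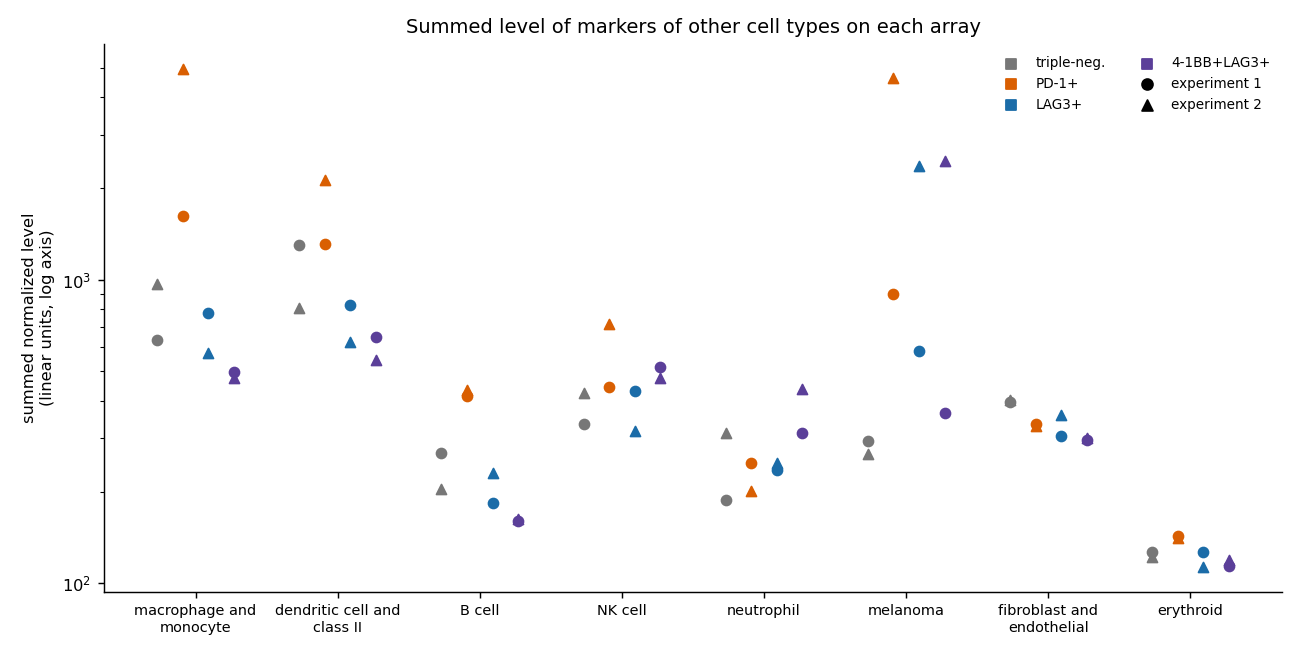
Summed normalized level (linear units on a log axis, y axis) of the markers of 8 other cell types on each array, coloured by population, circles for experiment 1 and triangles for experiment 2. Macrophage and monocyte markers sum to 1621 and 4953 on the PD-1+ arrays and to at most 970 on the other 6, and melanoma markers are highest in experiment 2 in every population except the triple-negative one.

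A difference of nearly the same size in both experiments was seen in histone genes. Replication-dependent histone genes encode the core and linker histones made in S phase, lie in clusters, and give messages that end in a stem-loop in place of a poly(A) tail. They were set apart as a list after their values had been seen, so their counts are a description. Of 50 such genes on the array 40 were tested; 37 had the lower mean in LAG3+ cells, 31 with no overlap, against 17.9% of all genes, and none passed the test. The median difference was -1.93, with -2.04 in experiment 1 and -2.02 in experiment 2. For 26 of the 40, both PD-1+ arrays were above the other 6 arrays, which held for 7.88% of all genes. Their summed level was 8443 and 8548 on the LAG3+ arrays and 36240 and 30986 on the PD-1+ arrays, while triple-negative and 4-1BB+ LAG3+ cells had 3332 to 9339.

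H4c12, an H4 gene, measured 5.10 and 5.16 in LAG3+ and 8.98 and 9.70 in PD-1+ cells, the lowest difference of any eligible gene (-4.21 ± 0.72, limma adjusted p = 0.102). H4c18, H4c11 and H4c9 differed by -3.93, -3.47 and -3.29. H3c6, an H3 gene, was 7.54 and 8.52 against 11.06 and 10.88. The abundant H2A gene H2ac20 was 11.12 and 10.63 against 12.88 and 12.43, so the difference was seen in bright probes too. The linker histone gene H1f5 was 4.47 and 5.0 against 7.90 and 7.38 (-2.90 ± 0.43, limma adjusted p = 0.1). These genes are near-identical copies, so a probe may read several of them and their values are not independent. Replication-independent histones, whose messages carry poly(A) tails, had a median of -0.19 over 6 tested genes, and H3f3b, an H3.3 gene, was 10.60 and 10.50 in LAG3+ and 10.34 and 10.85 in PD-1+ cells. The labels name total RNA and a core facility's labelling protocol; its primer and its part in these differences, as that of the Rnu6 difference, were not tested.

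Among the H2B genes the differences ran both ways, though H2bc18, higher in LAG3+ cells, was near the lowest detected signal. The bases before their starts are shown because some members share an element and yet differ in opposite directions. The sequences are from RefSeq on GRCm38.p6, which had a promoter window for 6294 of the 7893 tested genes, and give the 90 bases before the annotated start, 5′ to 3′ on the gene's strand. Capitals mark the octamer ATTTGCAT, known in H2B promoters as a site of the factor OCT1, and CCAAT, each searched on both strands, with no overlap between the 2 motifs here. H2bc11 lies at chr13:22043108-22043197 (+), H2bc12 at chr13:22035731-22035820 (+), H2bc14 at chr13:21721954-21722043 (+) and H2bc18 at chr3:96269610-96269699 (+).
H2bc11: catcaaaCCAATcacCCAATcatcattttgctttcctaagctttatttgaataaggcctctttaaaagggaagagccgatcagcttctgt
H2bc12: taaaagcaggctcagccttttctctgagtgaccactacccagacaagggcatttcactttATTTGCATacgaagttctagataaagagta
H2bc14: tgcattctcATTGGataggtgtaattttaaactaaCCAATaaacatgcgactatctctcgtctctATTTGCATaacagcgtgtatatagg
H2bc18: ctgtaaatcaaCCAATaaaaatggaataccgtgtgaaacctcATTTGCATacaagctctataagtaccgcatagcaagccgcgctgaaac

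The octamer begins at position -30, -25 and -48 relative to the start of H2bc12, H2bc14 and H2bc18, and these letters are not in the printed window of H2bc11. Over windows of 250 bases before to 50 after the start, 3 of 6 tested H2B genes held the octamer and 1.97% of 27025 genes did. CCAAT was in 6 of 6 and in 41.1%. Neither motif was particular to H2B genes: the octamer was also in 5 of 13 tested H2A genes, though in 0 of 7 H3 and 0 of 6 H4 genes. CCAAT was in 13 of 13 H2A, 7 of 7 H3 and 1 of 6 H4 genes. H2bc11 measured 5.38 and 5.60 in LAG3+ and 9.73 and 8.78 in PD-1+ cells (-3.76 ± 0.63). H2bc14 was 5.42 and 5.65 against 9.16 and 8.91 (-3.50 ± 0.56), and H2bc12 was 6.46 and 6.65 against 10.36 and 9.72 (-3.48 ± 0.83). H2bc18, which holds both motifs, was the exception: 5.18 and 5.26 in LAG3+ cells and undetected in PD-1+ cells (4.14 and 4.28), with 5.28 and 6.55 in triple-negative cells (1.01 ± 0.45, limma adjusted p = 0.463). H2bc7 and H2bc9 were detected on both PD-1+ arrays and neither LAG3+ array, at least 5.18-fold and 3.92-fold lower in LAG3+ cells (limma adjusted p = 0.0861 for both).

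Genes of DNA replication did not follow the histones. Of 31 genes for replication and nucleotide supply on the array 27 were tested, and 23 had the higher mean in LAG3+ cells, 13 with no overlap, where 22.3% of all genes were higher with no overlap. None was lower with no overlap and none passed the test. The median was 0.76 (0.44 and 0.85 in experiments 1 and 2), 0.99 without PD-1+ array 1 and 0.30 without PD-1+ array 2. Of the 27 genes, 24 were detected on both LAG3+ arrays and 15 on both PD-1+ arrays. Over all 7893 tested genes these counts were 5319 and 3574, so detection was lower on the PD-1+ arrays in general. Cdc6, which loads the replicative helicase at origins, measured 7.45 and 8.25 in LAG3+ and 6.39 and 4.28 in PD-1+ cells (2.52 ± 0.70, limma adjusted p = 0.243). Cdc45, a part of the active helicase, was 6.98 and 6.01 against 5.72 and 4.24, and Pole, the leading-strand polymerase, 5.74 and 5.74 against 4.87 and 4.14. Cdc6, Cdc45 and Pole were each undetected on the second PD-1+ array. Rrm1 and Tk1, which supply deoxynucleotides, were higher by 1.07 ± 0.39 and 1.02 ± 0.38 with the same order in both experiments. In all, 16 of the 27 were higher in LAG3+ cells in both experiments and 1 was lower in both. Mcm10 differed in opposite directions, at 8.22 and 7.0 in LAG3+ and 8.67 and 4.23 in PD-1+ cells (1.16, and 0.03 by another probe).

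Of 27 tested genes of the mitotic spindle and kinetochore, 23 had the higher mean in LAG3+ cells, 10 with no overlap against 22.3% of all genes, 1 was lower with no overlap and none passed the test (median 0.55, 0.88 and 0.25 by experiment). Nusap1, which binds spindle microtubules, was 8.65 and 8.48 in LAG3+ and 6.64 and 6.79 in PD-1+ cells (1.85 ± 0.38, limma adjusted p = 0.141). Prc1, which bundles the midzone of the spindle, was 8.29 and 7.22 against 6.59 and 4.19, and Kntc1, a kinetochore protein, 7.85 and 6.97 against 6.15 and 6.17. Prc1 was undetected on the second PD-1+ array. Kif2c, a kinesin that takes microtubules apart, was 7.63 and 7.84 against 8.42 and 4.61 and so differed in opposite directions in the 2 experiments. Against triple-negative cells, the mitotic genes had a median difference of 1.49 for LAG3+ cells against 1.13 for PD-1+ cells, and the replication genes 1.38 and 0.44; these comparisons share the triple-negative arrays. The replication-dependent histones had 0.13 in LAG3+ and 2.56 in PD-1+ cells.

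**Figure D3:**
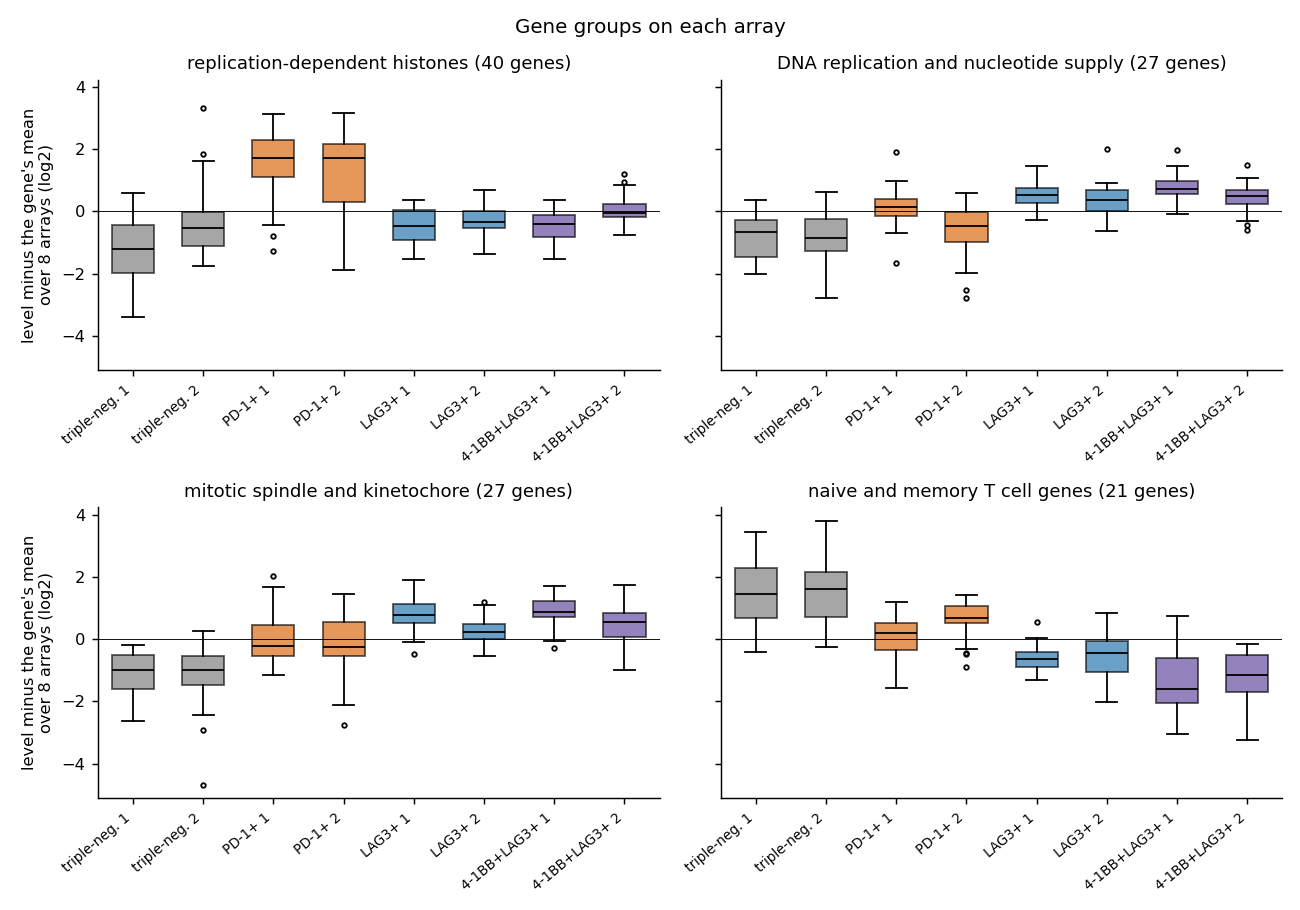
Level of each gene minus its own mean over the 8 arrays (log2, y axis) for 4 gene groups on each array (x axis). Boxes mark the quartiles, a line the median, whiskers the range without outlying genes, and points the outlying genes. The histone boxes of both PD-1+ arrays lie above those of the other 6, while the replication and mitotic genes are higher on the LAG3+ than on the PD-1+ arrays and the naive and memory genes step down from triple-negative over PD-1+ to LAG3+ and 4-1BB+ LAG3+ cells.

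Genes of naive and memory T cells were lower in LAG3+ cells. Of 21 tested, 18 had the lower mean in LAG3+ cells, 12 with no overlap against 17.9% of all genes, none was higher with no overlap and none passed the test (median -0.77, -0.60 and -0.87 by experiment). Satb1, a chromatin organizer of thymocytes and naive cells, was 7.35 and 5.83 in LAG3+ cells against 9.04 and 7.92 in PD-1+ cells, and Klhl6 8.75 and 9.19 against 10.26 and 10.80. Txnip, which restrains glucose uptake, was 8.44 and 7.83 against 9.66 and 9.56. Klf2, a factor of T cell quiescence and trafficking, was 6.85 and 7.05 against 7.71 and 8.87. Il7r, the receptor for the survival cytokine IL-7, was 6.12 and 5.67 against 6.45 and 7.34, and Tcf7, the factor TCF1 of stem-like T cells, 5.35 and 6.29 against 6.33 and 6.69. For 18 of the 21 genes the PD-1+ mean lay between the triple-negative and the LAG3+ means, against 27.0% of all genes.

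Of 12 tested genes of integrins and adhesion, 5 had the higher and 7 the lower mean in LAG3+ cells. With no overlap, 1 was higher and 4 were lower, against 22.3% and 17.9% of all genes. None passed the test (median -0.32, turning to 0.05 with scaling to the 75th percentile). Cd44, an activation and memory marker, was 6.35 and 6.39 in LAG3+ cells against 7.65 and 7.85 in PD-1+ (-1.38 ± 0.32, limma adjusted p = 0.174), with 5.90 and 6.23 in triple-negative cells. Icam2 was 6.92 and 7.66 against 8.55 and 9.08. Of the Ly49 and NKG2 families, Klra7, a Ly49 receptor for MHC class I, was undetected in LAG3+ cells (4.25 and 4.40) but measured 7.24 and 6.64 in PD-1+ cells, at least 5.58-fold lower in LAG3+ cells (limma adjusted p = 0.1), with 8.49 and 8.01 in triple-negative cells. Klri2 was 5.45 and 5.74 against 6.95 and 7.73. As a list the 8 tested Ly49 and NKG2 genes had 4 higher and 4 lower.

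Inhibitory receptor genes had the higher mean in LAG3+ cells for 8 of 9 tested, 4 with no overlap against 22.3% of all genes and none past the test. The list holds Lag3 and Pdcd1, which the cells were sorted by; Lag3 is 1 of the 4, and the median of 0.53 is its own difference. Ctla4, which competes for the ligands of CD28, measured 10.12 and 10.84 in LAG3+ and 8.40 and 9.80 in PD-1+ cells (1.38 ± 0.62, limma adjusted p = 0.46). Havcr2, which encodes TIM-3, was 9.39 and 8.19 against 8.85 and 4.46, so its difference of 2.13 ± 1.30 rests on the second PD-1+ array. Cd96 was 7.49 and 7.44 against 6.88 and 6.50, and Cd244a, detected in LAG3+ cells alone of the pair, 4.70 and 5.0 against 4.15 and 4.16. Of 8 tested members of the TNF receptor family, 5 had the higher and 3 the lower mean in LAG3+ cells. With no overlap 3 were higher and 0 lower, against 22.3% and 17.9% of all genes, and none passed the test. The median was 0.29 (0.47 and 0.02 by experiment). Among the higher ones, Tnfrsf18 (GITR) was 6.82 and 6.81 in LAG3+ and 5.89 and 5.0 in PD-1+ cells (1.37 ± 0.39, limma adjusted p = 0.257). Tnfrsf4 (OX40) was 7.34 and 7.33 against 6.28 and 6.56. Cxcr6, a receptor of resident and tumor-infiltrating T cells, was 7.06 and 6.55 against 5.78 and 4.21 (1.81 ± 0.53, limma adjusted p = 0.264). It was undetected on the second PD-1+ array. Of the 11 tested genes in its list, the chemokine receptors, 4 had the higher and 7 the lower mean in LAG3+ cells (median -0.24). With no overlap 4 were higher and 3 lower, against 22.3% and 17.9% of all genes, and none passed the test.

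Effector genes went both ways. Ifng, interferon gamma, was 10.31 and 10.97 in LAG3+ and 10.44 and 10.58 in PD-1+ cells, with 8.02 and 8.90 in triple-negative cells, and its difference was 0.13 ± 0.41. Of 10 tested genes of granzymes and killing 6 had the higher mean in LAG3+ cells and 4 the lower (median 0.18, turning to -0.06 with only genes detected on all 4 arrays). Gzmd, a granzyme, was 8.57 and 7.28 against 7.53 and 4.18, though another probe of Gzmd differed by 0.29 and not by 2.07. The probe used was undetected on the second PD-1+ array. Il10, an inhibitory cytokine, overlapped, at 6.43 and 4.31 in LAG3+ and 6.11 and 8.17 in PD-1+ cells.

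Subunits of the constitutive proteasome had the higher mean in LAG3+ cells for 22 of 25 tested, 10 with no overlap against 22.3% of all genes, 1 was lower with no overlap and none passed the test (median 0.32, 0.21 and 0.45 by experiment, and 1.09 with scaling to the 75th percentile). Psma4 was 8.33 and 8.06 in LAG3+ cells against 7.41 and 6.37 in PD-1+ (1.30 ± 0.45), Psmc4 9.11 and 9.62 against 8.11 and 8.44, Psmb6 8.74 and 9.39 against 7.87 and 8.08, and Psmd1 5.57 and 5.75 against 5.06 and 4.20. Psmd1 was undetected on the second PD-1+ array. MHC class I and immunoproteasome genes went the other way for 13 of 16 (median -0.22), a direction that turned to 0.58 with scaling to the 75th percentile. Interferon-stimulated genes had a median of -0.39 over 22 tested, near 0 (0.01) under that scaling. Of the 22, 10 had the higher and 12 the lower mean in LAG3+ cells. With no overlap 5 were higher and 6 lower, against 22.3% and 17.9% of all genes, and none passed the test. Gbp2, an interferon-induced GTPase, was 6.60 and 6.04 in LAG3+ and 7.58 and 7.55 in PD-1+ cells. Gbp3, of the same list, went the other way, at 7.29 and 7.58 against 5.24 and 6.83. Scaling to the 75th percentile moved the median of all genes from 0.05 to 0.24. Under it the replication-dependent histones (median -1.25) stayed below that shift. The replication genes (1.19) lay above it, but so did the aminoacyl-tRNA synthetases (1.21), the constitutive proteasome (1.09) and respiratory complexes II to V (0.99). Cytosolic ribosomal proteins had 0.62. Under this scaling the replication genes thus did not stand apart from the synthetases and proteasome. Igf1, a growth factor, was 5.17 and 6.42 in PD-1+ cells and undetected in LAG3+ cells (4.35 and 4.49), and Igfbp7 was the one tested gene of the 4 in its list that rose.

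**Figure D4:**
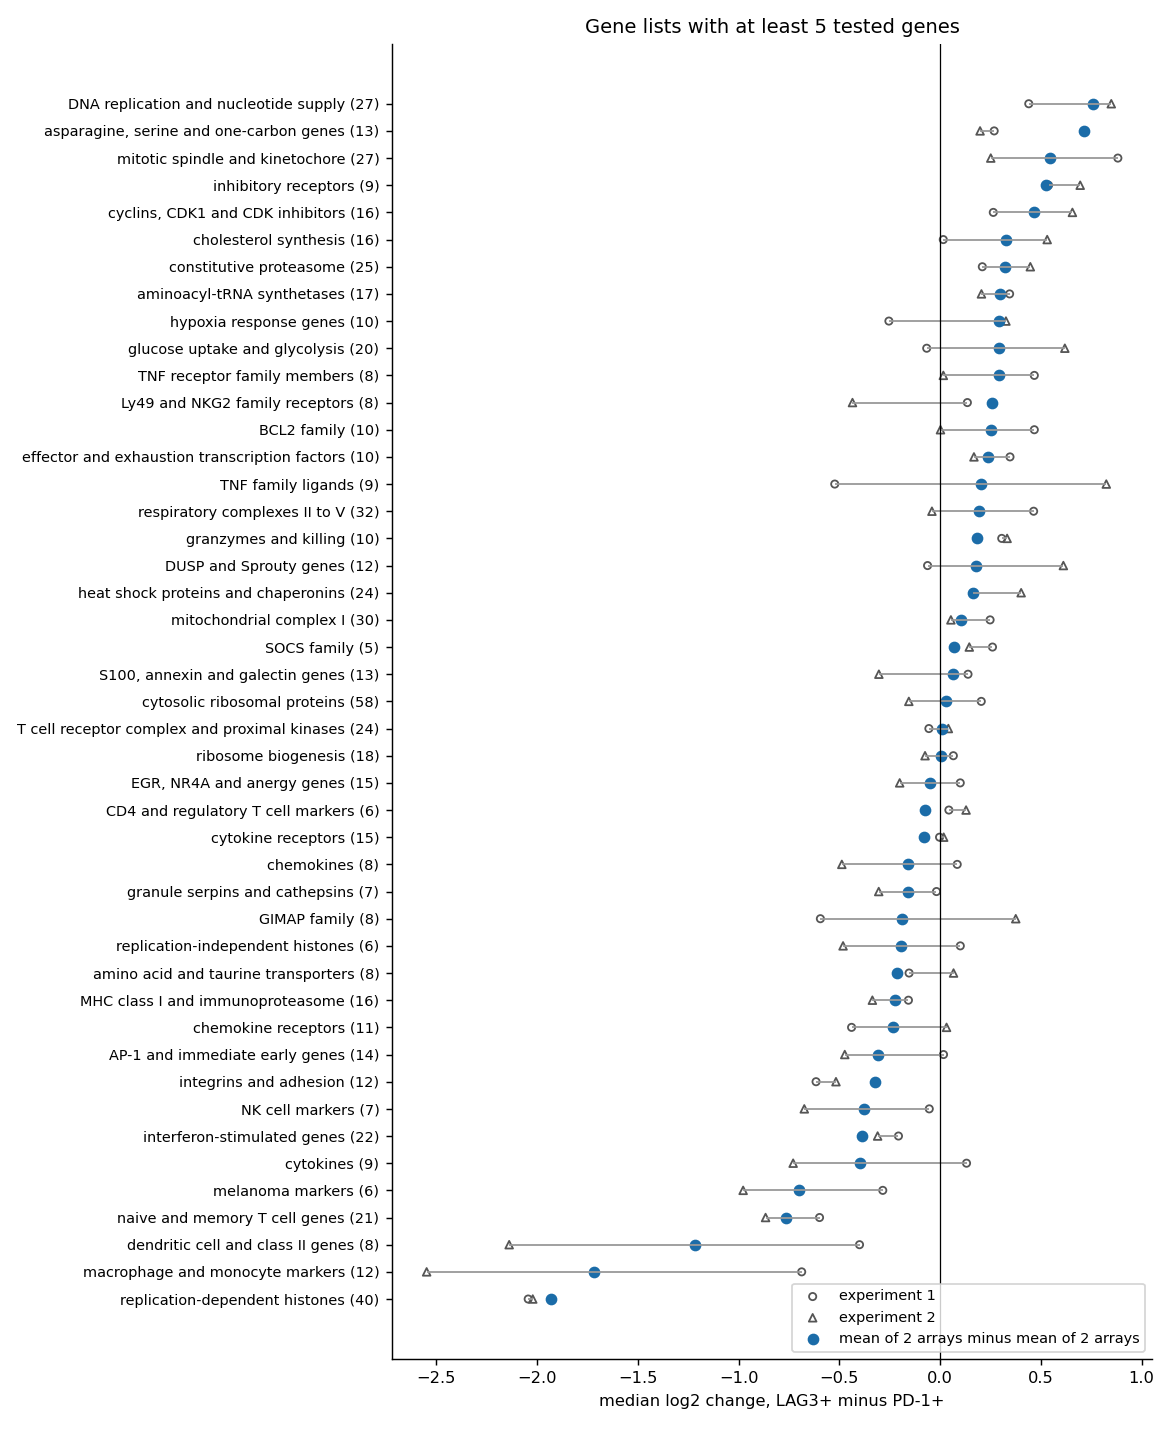
Median log2 difference of LAG3+ minus PD-1+ cells (x axis) for each of 45 gene lists with at least 5 tested genes (y axis, number tested in brackets), from the means of both arrays (filled) and from each experiment (open circle for 1, triangle for 2). The replication-dependent histones, at -1.93, have the lowest median with experiments that nearly coincide, while the macrophage and monocyte markers, at -1.72, differ between experiments.

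Across all 7893 genes, the differences of the 2 experiments correlated at r = 0.168, as a description over genes that share arrays and normalization. Of the genes, 30.4% were higher in LAG3+ cells in both experiments and 25.3% lower in both. The 6 genes that passed the test and most of the replication-dependent histones were on the same side in both, 31 of 40 histones lower and 2 higher, while the macrophage and monocyte markers were further apart in experiment 2 than in experiment 1.

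**Figure D5:**
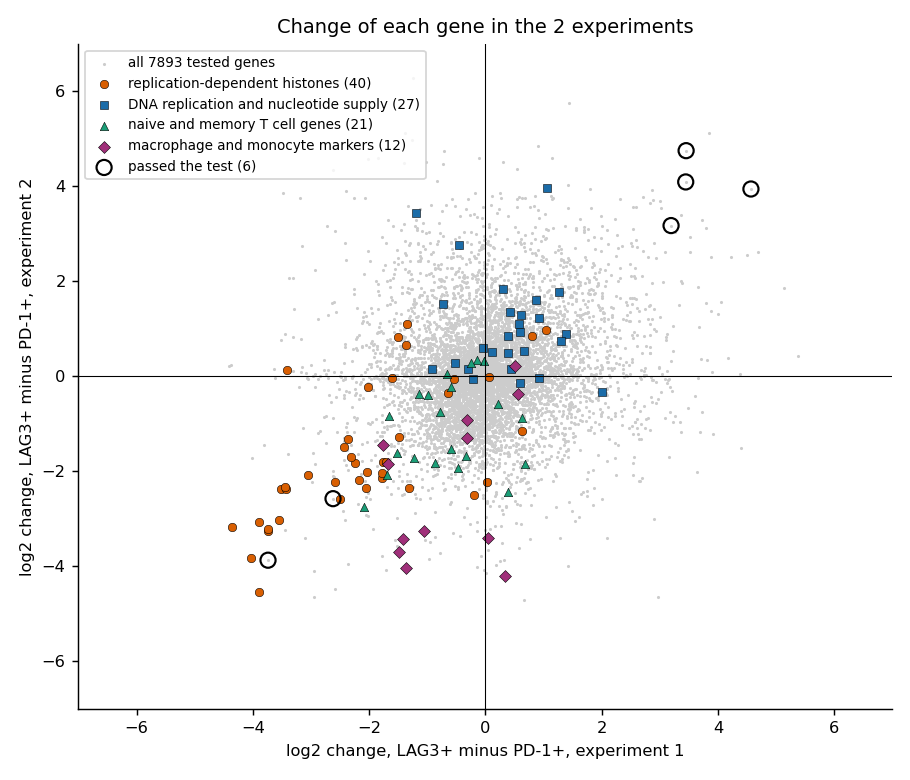
Log2 difference of LAG3+ minus PD-1+ cells in experiment 1 (x axis) and experiment 2 (y axis) for each of 7893 tested genes (grey), with 4 gene groups coloured and the 6 genes that passed the test circled. The histones gather in the lower left quadrant, where both experiments are below 0, and the macrophage and monocyte markers lie lower in experiment 2 than in experiment 1.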

How the data were processed

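For 8 one-colour Illumina mouse arrays, the deposited table held unnormalized probe intensities, each beside a detection p-value, per the file headers. A second deposited table held the authors' normalized intensities; how they were made is not stated, and they served as an alternative. The limma 3.58.1 function neqc (R 4.3.3) corrected background and quantile-normalized the first table, with an offset of 16 and negative controls estimated from detection p-values, and levels are log2. A gene was read from its brightest probe. Genes with a detection p below 0.05 on at least 2 arrays were tested; 9937 genes were not. The offset compresses differences of dim genes. Precision is limited by the number of arrays (median standard error 0.45).

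The linear model of limma (lmFit and eBayes, two-sided) was fitted to all 8 arrays with a mean for each population and without a block. This left 4 residual and added 2.98 prior degrees of freedom. The fit was run on simulated data that gave each gene 1 spread in all populations and had no detection floor. That run does not cover the wider spread of the PD-1+ arrays or genes near background. The experiment number in the titles marks a shared experiment and so pairs the arrays; the deviations of the LAG3+ and PD-1+ arrays of 1 experiment correlated at 0.118. An exact test of 2 arrays against 2 cannot go below p = 0.333. Since replicates are pools, p-values describe variation among pools. For a gene near background in a population, the small spread at background enters the standard error too. For a gene undetected on both arrays of a population, the fold is "at least" the brighter mean over the mean of the dim arrays' floors, a floor being the lowest detected signal or the gene's own if higher. Summed marker levels cover all markers on the array.

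Named genes were the sorting markers, Igfbp7 and Slc6a6, all genes past the threshold, the 15 highest and 15 lowest differences detected on both arrays of the higher population with no overlap, and up to 4 of the largest differences per list; H1f5, H2ac20, H2bc7, H2bc9, H2bc18, H3f3b, Rrm1, Tk1, Klf2, Il7r, Tcf7, Csf1r, Apoe, Ifng, Gbp2 and Tnfrsf4 were singled out after their values were seen where they fell outside this rule. The members and lists were chosen with earlier results of these data known. Names came from the platform table, updated through RefSeq gene names of GRCm38.p6. A gene that these rules would name is not reported here.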

Additional observations from a re-analysis of the deposited data

How the results depend on the processing

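The number of genes past the threshold, 6 (4 higher and 2 lower), depended on the setting. It was 2 (1 and 1) with quantile normalization without background correction and with an offset of 50, 48 (18 and 30) with the authors' value table, 8 (3 and 5) without the filter, and 5 (4 and 1) with genes detected on both arrays of LAG3+ or PD-1+ cells. It was 1 (1 and 0) with the mean of all probes of a gene. It was 0 (0 and 0) with scaling to the 75th percentile, with only the 4 LAG3+ and PD-1+ arrays, with array quality weights, with a trend and robust prior, with the replicate block over all arrays or over the 4, and, in a setting chosen after seeing the data, with genes detected on all 4 arrays. In these limma fits with 0, between 369 and 1122 genes had an unadjusted p below 0.05. Leaving out 1 array at a time gave 0 to 165 genes, 0 to 99 higher and 0 to 66 lower: 165 without PD-1+ array 1, 31 (15 and 16) without PD-1+ array 2, and 0 without any other array, where the lone array is taken to vary like the other groups. Of the 6 genes, 4 were among the 48 of the value table, all 6 passed without PD-1+ array 1 and 5 without PD-1+ array 2.

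All 6 kept their direction in all settings. Igfbp7 ranged from 2.09 to 4.53 and passed in 4 of 20 settings, Slc6a6 from 2.08 to 4.70 in 2 of 20, and Cyp4f18 from -3.92 to -1.78 in 7 of 20; limma's adjusted p reached 0.48 for each. Other named genes turned direction as follows. With scaling to the 75th percentile Cd4 was -0.27, H3f3b 0.77 and Tcf7 0.042. Pdcd1 was -0.36 with the value table, Tnfrsf9 -0.085 with the mean of probes and Cd8b1 -0.000269 without background correction. Leaving out 1 array gave ranges of Cd3e -0.17 to 0.228, Cd4 -0.029 to 0.216, Cd8b1 -0.064 to 0.073, H3f3b -0.305 to 0.203, Havcr2 -0.061 to 4.33, Ifng -0.196 to 0.465, Kif2c -0.69 to 3.12, Mcm10 -1.06 to 3.38, Pdcd1 -0.42 to 0.703 and Tnfrsf9 -0.53 to 0.968. The cause was not tested. Of 45 lists with at least 5 tested genes, 19 kept the sign of their median in all 21 settings, the replication-dependent histones (-2.18 to -0.99), DNA replication genes (0.30 to 1.19) and naive and memory genes (-1.33 to -0.12) among them. Signal over background, lowest on the PD-1+ array within each experiment, limits the dim genes: detected probes were 1.42 and 1.18 times as bright as undetected ones there and 1.64 and 1.29 times on the LAG3+ arrays.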
